A study of Homo sapiens with 12 samples.

Results

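RNA sequencing of C4-2 cells was used to ask what the KDM1A inhibitor namoline changed in cells whose KDM7A was already inhibited by TCE-5002. Of the 12 libraries of the series, 4 make up this comparison: 2 labelled R1881 with TCE-5002 and 2 labelled R1881 with namoline and TCE-5002, called the combination here, and they were chosen by these titles alone. C4-2 (LNCaP:C42 in the titles) is a castration-resistant human prostate cancer line derived from the androgen-dependent line LNCaP, so all libraries come from a single cancer line in culture. Every group was kept in phenol red-free medium with charcoal-stripped serum and received the synthetic androgen R1881 at 1 nM, with DMSO as the vehicle. Treatment lasted 72 h, with namoline at 50 µM. TCE-5002 is given at 100 µM in the series text and at a lower dose in the study's methods, so its dose is uncertain. The C4-2 libraries with R1881 alone (2) and with R1881 and namoline (2) entered the filter on low counts, the scaling and the shared estimate of the spread. At the end they served to compare the effect of namoline with and without TCE-5002.

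KDM1A, also called LSD1, is a flavin-dependent demethylase that removes methyl groups from histone lysines within repressor complexes with RCOR1 (CoREST) and histone deacetylases, and it acts as a coregulator of the androgen-driven transcription of prostate cells. KDM7A belongs to the iron-dependent JmjC demethylases and removes repressive methyl marks from histone tails. Its closest relatives are PHF8 and PHF2, and TCE-5002 is also known to act on PHF8 and on KDM2A. Namoline is a reversible inhibitor of KDM1A.

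The libraries held 18647712 to 20131812 counts with TCE-5002 and 17416786 to 18336820 with the combination. Libraries of a group correlated at r 0.985 (TCE-5002) and 0.992 (combination) across genes, which are not independent replicates, and differed by more than counting noise in both groups (chi-square statistic per gene 28.1 and 3.62). The TCE-5002 pair was the less even, with 56 of 9833 genes over 10 CPM (counts scaled to a common library size) differing at least 2-fold, against 1 gene in the combination pair, and its difference followed GC content (Spearman rho -0.57 across genes). The deposited identifiers of the TCE-5002 libraries follow another numbering than those of the other C4-2 libraries. What the numbering marks is not stated, and if it marks a batch, batch and group cannot be told apart. Of 9 prostate luminal markers all were over 1 CPM in the 4 libraries, and their summed level was 4175 to 4306 CPM with TCE-5002 and 2122 to 2152 CPM with the combination. The 3 basal, 6 lymphocyte and 4 macrophage markers were each under 1 CPM in the 4 libraries. Endothelial markers summed to 5.17 to 6.48 CPM with TCE-5002 and 0.385 to 0.480 CPM with the combination, all of it from VWF in the TCE-5002 libraries, and stromal markers to 40.2 to 73.4 CPM and 70.6 to 83.4 CPM, most of it from COL1A1. The part of these markers in the results was not tested. In bulk RNA, fewer cells of a kind and less RNA per cell cannot be told apart.

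Adding namoline to TCE-5002 changed a large part of the transcriptome. Of 17702 genes tested, 4614 (26.1%) passed an edgeR adjusted p under 0.05 with at least a 2-fold change, with 2077 higher (11.7%) and 2537 lower (14.3%) in the combination libraries. The counts of rising and falling members of each gene list below are to be read beside these shares of all genes. Without the limit on fold, 9749 genes (55.1%) had an adjusted p under 0.05. At least a 4-fold change was seen for 685 rising and 677 falling genes, and at least a 16-fold change for 88 rising and 46 falling genes. The median log2 fold change of all genes tested was -0.04, a centre that the scaling sets near 0. In 13323 genes (75.3%) both combination libraries lay on the same side of both TCE-5002 libraries, so the absence of overlap between 2 and 2 libraries is no mark of a gene by itself. The first principal component of the 8 C4-2 libraries carried 51.1% of the variance and set the combination (86.6 and 94.1) apart from the other 6 libraries (-44.9 to -9.98). Rising genes had a lower GC content (median 47.5%) and falling genes a higher one (52.3%) than all genes tested (48.6%), and after correction for GC content 4599 genes passed the threshold, 2317 higher and 2282 lower.

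**Figure D1:**
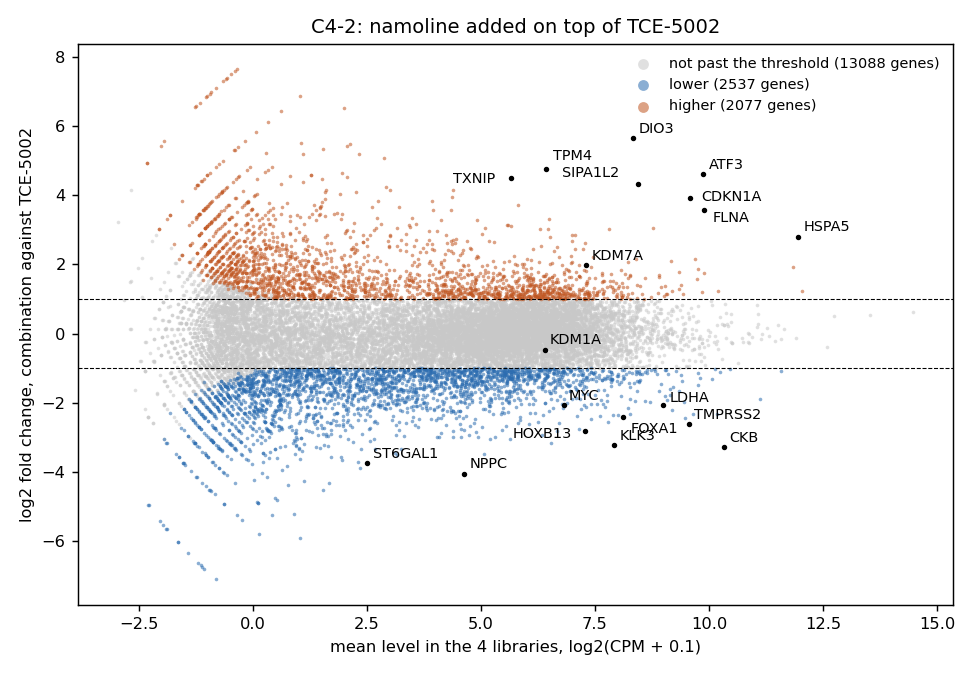
Log2 fold change of each gene tested (combination against TCE-5002, vertical axis) against its mean level in the 4 libraries (log2 CPM with a small offset, horizontal axis), with genes past the threshold coloured and genes named in the text marked. Rising (2077) and falling (2537) genes lay over a wide range of levels, around a median of -0.04.

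The targeted enzymes themselves were measured first. KDM1A RNA (chromosome 1, 23019448 to 23083689) was at 106 and 88.6 CPM in the TCE-5002 libraries and at 70.2 and 71.0 CPM in the combination libraries (log2 fold change -0.46, SE 0.12, edgeR adjusted p 0.00381), so that both combination libraries were lower but the difference stayed under 2-fold. KDM7A (chromosome 7, 140084746 to 140177035) rose from 69.4 and 59.5 CPM to 235 and 271 CPM (log2 fold change 1.97, SE 0.13, edgeR adjusted p 2.3e-08), with no overlap of the groups. Among the relatives of KDM7A, PHF8 (log2 fold change -0.39), PHF2 (0.37), KDM2A (0.46) and KDM2B (-0.01, a gene whose exons overlap RNF34) stayed under 2-fold. Of 21 tested members of the KDM1A complexes, 2 fell and 0 rose, with a median of -0.01. The scaffold RCOR1 was at 56.0 and 48.3 CPM and 77.4 and 78.5 CPM (log2 fold change 0.58). HMG20B, a DNA-binding subunit of the same complex, fell from 127 and 167 CPM to 53.3 and 45.3 CPM (log2 fold change -1.57, SE 0.15, edgeR adjusted p 1.1e-06), although its exons overlap MFSD12 and strand was not used in the counting. GFI1, a repressor that recruits KDM1A, was under 1 CPM in the 4 libraries.

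Of 15 other histone demethylases tested, 1 rose and 1 fell. The riser was KDM3A, which acts on a histone lysine that KDM7A also demethylates and is known as a partner of nuclear receptors, at 69.9 and 68.3 CPM and then 142 and 158 CPM (log2 fold change 1.12, SE 0.11, edgeR adjusted p 9.53e-07). Of 19 polycomb and DNA methylation genes, 2 rose and 3 fell, close to the shares of all genes. UHRF1, which brings the maintenance methyltransferase to replicating DNA, fell from 8.93 and 11.4 CPM to 4.40 and 4.202 CPM (log2 fold change -1.24, SE 0.20, edgeR adjusted p 0.000134), while its relative UHRF2 rose from 61.4 and 58.4 CPM to 124 and 131 CPM (log2 fold change 1.09, SE 0.11, edgeR adjusted p 1.78e-06). JARID2, a subunit of the polycomb methyltransferase complex, fell (log2 fold change -1.72) and EZH1, a catalytic subunit of that complex, rose (1.27).

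Among protein-coding genes with at least 10 CPM in the higher group, the largest increase was that of DIO3. DIO3 (chromosome 14, 101561351 to 101563452), the deiodinase that inactivates thyroid hormone, was at 11.5 and 13.6 CPM with TCE-5002 and at 604 and 655 CPM with the combination (log2 fold change 5.65, SE 0.43, edgeR adjusted p 1.04e-07). ID4 and ID1 encode inhibitors that keep basic helix-loop-helix factors from DNA. ID4 went from 0.457 and 0.369 CPM to 14.9 and 13.2 CPM (log2 fold change 5.06, SE 0.28, edgeR adjusted p 6.57e-09), and ID1 from 0.659 and 0.843 CPM to 13.2 and 15.01 CPM (log2 fold change 4.22, SE 0.23, edgeR adjusted p 5.62e-09). The tropomyosin TPM4, an actin filament protein, rose from 6.19 and 5.90 CPM to 161 and 168 CPM (log2 fold change 4.76, SE 0.14, edgeR adjusted p 1.79e-11). In each of these 4 genes the pair of libraries within a group lay close together while the groups were far apart. The Rap GTPase-activating protein SIPA1L2 rose as well, from 32.8 and 33.4 CPM to 628 and 701 CPM (log2 fold change 4.33, SE 0.12, edgeR adjusted p 1.79e-11). FGF13, an intracellular member of the fibroblast growth factor family that binds sodium channels, was at 2.18 and 2.21 CPM and 40.4 and 37.9 CPM (log2 fold change 4.15, SE 0.22, edgeR adjusted p 4.03e-09). SULF2, a sulfatase of heparan sulfate chains outside the cell, rose with a log2 fold change of 4.16, and its exons overlap those of NCOA3. The other leading risers, ATF3, TXNIP and FAS, are described with their pathways.

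The genes that fell most included those of secreted and surface proteins. NPPC (chromosome 2, 231921820 to 231926403), the precursor of C-type natriuretic peptide, fell from 41.5 and 51.7 CPM to 2.75 and 2.88 CPM (log2 fold change -4.05, SE 0.19, edgeR adjusted p 1.8e-09). ST6GAL1, which caps glycans with sialic acid, fell from 12.6 and 8.22 CPM to 0.825 and 0.720 CPM (log2 fold change -3.74, SE 0.31, edgeR adjusted p 2.05e-07). For both genes the combination libraries lay far under the TCE-5002 libraries. The basic leucine zipper factor MAF was at 15.5 and 16.9 CPM and 1.48 and 1.38 CPM (log2 fold change -3.49, SE 0.25, edgeR adjusted p 5.3e-08), and the Wnt ligand WNT10B at 16.4 and 17.7 CPM and 1.59 and 1.801 CPM (log2 fold change -3.33, SE 0.20, edgeR adjusted p 1.57e-08). CKB, the creatine kinase that buffers ATP, dropped from 1859 and 2807 CPM to 244 and 235 CPM (log2 fold change -3.28, SE 0.19, edgeR adjusted p 1.14e-08). The netrin receptor UNC5A (-3.34) and TNFAIP2 (-3.45) fell to a similar degree on the log2 fold change scale. LRRC26, an auxiliary subunit of potassium channels, was uneven between the TCE-5002 libraries, at 32.9 and 89.3 CPM, before its fall to 5.003 and 5.88 CPM. Its exons overlap GRIN1, and those of GGT1, a glutathione-degrading enzyme with a log2 fold change of -3.17, overlap SNRPD3.

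**Figure D2:**
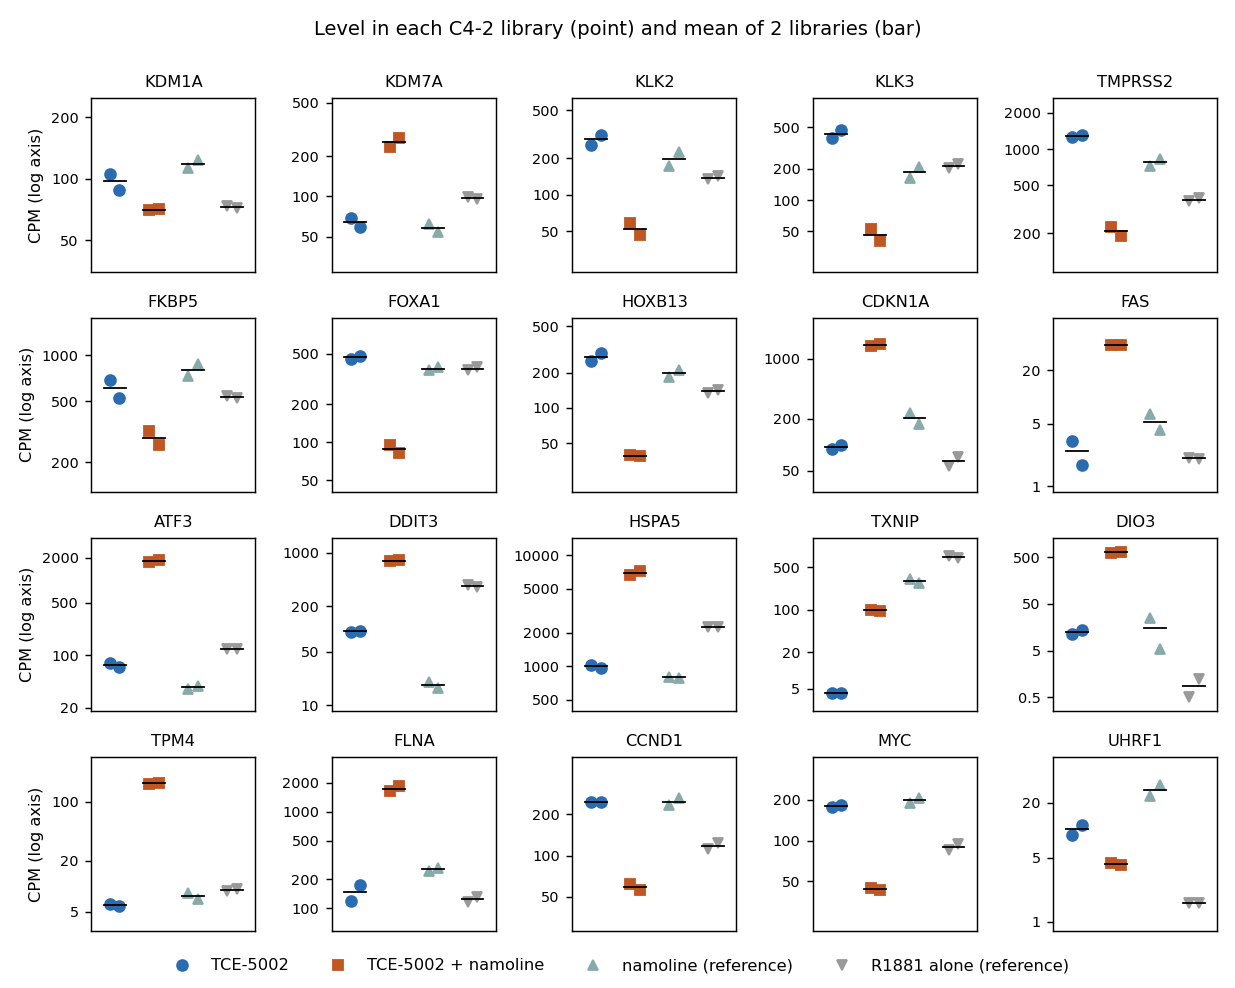
Levels (CPM, log axis) of 20 genes named in the text in each of the 8 C4-2 libraries, each point a library and each bar the mean of 2. The TCE-5002 and combination libraries do not overlap in any of the panels, from KDM1A with a log2 fold change of -0.46 to DIO3 with 5.65.

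The prostate lineage program held the largest share of falling genes among the lists. It holds the secreted kallikreins, the transcription factors of luminal cells and other androgen-responsive genes. Of 32 tested members, 26 fell and 0 rose, with a median log2 fold change of -2.05. KLK3 (chromosome 19, 50854915 to 50860764), which encodes prostate-specific antigen, was at 396 and 477 CPM in the TCE-5002 libraries and at 52.4 and 40.9 CPM with namoline added (log2 fold change -3.22, SE 0.16, edgeR adjusted p 2.95e-09). Its neighbour KLK2 fell from 260.2 and 314 CPM to 58.8 and 46.2 CPM (log2 fold change -2.45, SE 0.16, edgeR adjusted p 2.42e-08). TMPRSS2, an androgen-driven surface protease, fell from 1263 and 1321 CPM to 228 and 192 CPM (log2 fold change -2.62, SE 0.13, edgeR adjusted p 1.99e-09). For these 3 genes both combination libraries lay far below either TCE-5002 library.

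The factors that set up prostate enhancers fell with them. FOXA1, which opens chromatin for hormone receptors, was at 457 and 479 CPM and 94.8 and 81.7 CPM (log2 fold change -2.41, SE 0.12, edgeR adjusted p 2.31e-09), and its exons overlap TTC6. HOXB13, a homeobox factor of the prostate lineage, fell from 249.8 and 294 CPM to 39.6 and 38.5 CPM (log2 fold change -2.80, SE 0.13, edgeR adjusted p 1.79e-09), and the luminal factor SPDEF from 197 and 295 CPM to 37.9 and 35.2 CPM (log2 fold change -2.75, SE 0.18, edgeR adjusted p 3.52e-08). Surface markers fell likewise: FOLH1, the prostate-specific membrane antigen, had a log2 fold change of -2.32 and STEAP1, a membrane metalloreductase, -2.37. The androgen-conjugating enzyme UGT2B15 showed -2.97, a value that is uncertain because its exons overlap those of the near-identical UGT2B17. FKBP5, a co-chaperone and a usual readout of steroid receptors, was at 689 and 526 CPM and 321 and 258 CPM (log2 fold change -1.07, SE 0.15, edgeR adjusted p 2.85e-05), the smallest fall among the genes of this list fixed by name, and it was under 2-fold without TCE-5002 replicate 1 (log2 fold change -0.85) or without combination replicate 2 (-0.92). The members that passed no test included TRPM8 (log2 fold change -0.34), ELL2 (0.09) and ZBTB16 (-0.35). The summed luminal markers fell with this list, and they share genes with it.

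Targets of the tumour suppressor p53 held the largest share of rising genes among the lists. Of 33 tested, 25 rose and 0 fell, with a median log2 fold change of 1.76. CDKN1A (chromosome 6, 36676460 to 36687339), which encodes the cyclin-dependent kinase inhibitor p21, rose from 90.3 and 100 CPM to 1409.7 and 1482 CPM (log2 fold change 3.93, SE 0.16, edgeR adjusted p 7.21e-10). The ubiquitin ligase gene MDM2, whose product degrades p53, rose from 129.8 and 116 CPM to 548 and 554 CPM (log2 fold change 2.16, SE 0.11, edgeR adjusted p 4.37e-09), and GADD45A, a growth arrest gene induced by DNA damage, from 53.2 and 44.9 CPM to 394 and 409 CPM (log2 fold change 3.03, SE 0.17, edgeR adjusted p 7.26e-09). These 3 genes rose in both libraries with little spread. BTG2 (log2 fold change 3.02), an antiproliferative gene, the phospholipid-binding PHLDA3 (3.15) and XPC (2.45), a sensor of DNA lesions, were among the others. GDF15, a stress cytokine, was already at 708 and 1227 CPM with TCE-5002 and at 973 and 1117 CPM with the combination (log2 fold change 0.11), where the libraries overlap.

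Genes of cell death were mixed, beside 11.7% of all genes that rose and 14.3% that fell. The falling share of the death-promoting genes was near that of all genes. Of 22 death-promoting genes, 7 rose and 3 fell, with a median of 0.26, or 0.10 to 0.49 when 1 library was left out. Of 8 opposing genes, 0 passed the threshold by edgeR or by DESeq2, with 4 at an unadjusted edgeR p under 0.05. At an edgeR adjusted p under 0.05 were 3 of the opposing genes, 2 higher and 1 lower, all with changes under 2-fold. FAS, the death receptor, was at 3.20 and 1.74 CPM and 39.0 and 38.2 CPM (log2 fold change 3.96, SE 0.24, edgeR adjusted p 1.58e-08), with exons that overlap ACTA2, a gene of the actin list that rose too. BBC3, which encodes the BH3 protein PUMA, rose from 4.21 and 7.80 CPM to 32.8 and 41.1 CPM (log2 fold change 2.62, SE 0.24, edgeR adjusted p 6.11e-07). Both are also p53 targets. The pore-forming relative BOK fell from 38.9 and 50.00 CPM to 13.5 and 14.05 CPM (log2 fold change -1.69, SE 0.15, edgeR adjusted p 3.41e-07) and BIK, another BH3 protein, had a log2 fold change of -1.61. The guardians MCL1 (log2 fold change -0.07) and BCL2L1 (0.05) had overlapping libraries.

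Cell cycle genes fell in part. Among 23 cyclin, CDK inhibitor and RB pathway genes, 3 rose and 6 fell. The G1 cyclin gene CCND1 dropped from 247 and 245 CPM to 62.1 and 56.3 CPM (log2 fold change -2.06, SE 0.12, edgeR adjusted p 8.49e-09), with exons that overlap LTO1. E2F1, an activator of S phase genes, fell from 27.8 and 34.0 CPM to 11.5 and 10.99 CPM (log2 fold change -1.46, SE 0.18, edgeR adjusted p 1.11e-05), and the repressor E2F7 rose (log2 fold change 1.51). Of 36 DNA replication genes, 10 fell and 0 rose, a share above the 14.3% of all genes that fell. By DESeq2 8 fell, and after GC correction 7. The median was -0.48, or -0.29 without TCE-5002 replicate 1. TK1, thymidine kinase, was at 47.9 and 69.0 CPM and 18.3 and 12.8 CPM (log2 fold change -1.91, SE 0.20, edgeR adjusted p 2.5e-06), and CDC45, a part of the replicative helicase, at 15.4 and 19.6 CPM and 6.49 and 3.002 CPM (log2 fold change -1.87, SE 0.27, edgeR adjusted p 3.88e-05). Of 31 G2/M and mitosis genes, 6 fell and 0 rose, with a median of -0.46. The combination replicates differed in this list, with 8 genes lower and a median of -0.76 without replicate 1, and 3 genes lower and a median of -0.24 without replicate 2. MYBL2, an activator of mitotic genes, fell from 33.9 and 46.6 CPM to 12.5 and 9.67 CPM (log2 fold change -1.85, SE 0.22, edgeR adjusted p 5.66e-06), and the mitotic kinase AURKB from 10.96 and 10.96 CPM to 4.29 and 2.76 CPM (log2 fold change -1.63, SE 0.22, edgeR adjusted p 2.67e-05). MKI67, the usual proliferation marker, was at 50.8 and 50.5 CPM and 53.2 and 31.2 CPM (log2 fold change -0.26), with overlapping libraries. Of 25 homologous recombination and Fanconi genes, 2 fell, among them FANCD2 (-1.34), and 7 fell without combination replicate 1.

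Promoters of these lists were searched for known elements on both strands, in the 250 bases before each start in RefSeq (GRCh38.p14). The element CHR, spelled TTTGAA, was found in 15 of 25 G2/M genes that had a promoter in the table (60%), against 16.1% of 27305 genes, and the CCAAT box in 22 of 25 (88%), against 37.0%. Genes of this list are known for these elements, and of the 5 falling members with a promoter 3 held a CHR, a share equal to that of the list. The p53 element, searched as its consensus pair of sites, was found in 0 of 28 p53 targets, against 0.0330% of all genes, which says only that this consensus is not in this window.

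The integrated stress response is the program by which kinases that sense amino acid loss, misfolded protein or viral RNA slow translation and raise ATF4 activity. Of 30 members tested, 9 rose and 3 fell, with a median of 0.40, or 0.24 without TCE-5002 replicate 1. ATF3 (chromosome 1, 212565334 to 212620777), a repressor and activator induced by many stresses, rose from 77.9 and 69.7 CPM to 1738 and 1856 CPM (log2 fold change 4.61, SE 0.13, edgeR adjusted p 1.79e-11). PPP1R15A, the phosphatase subunit that restores translation, rose from 6.80 and 9.06 CPM to 98.9 and 109.9 CPM (log2 fold change 3.72, SE 0.16, edgeR adjusted p 1.18e-09). DDIT3, which encodes the factor CHOP, rose from 92.4 and 95.3 CPM to 777 and 793 CPM (log2 fold change 3.06, SE 0.12, edgeR adjusted p 4.96e-10), and its exons overlap MARS1. ATF4 itself was at 408 and 449 CPM and 472 and 521 CPM (log2 fold change 0.21). PSAT1, of serine synthesis, fell from 390.4 and 329.9 CPM to 150.4 and 157 CPM (log2 fold change -1.23, SE 0.13, edgeR adjusted p 2.16e-06). The amino acid transporter SLC7A5 fell as well (log2 fold change -1.10), though under 2-fold after GC correction (-0.83) and without TCE-5002 replicate 2 (-0.89), whereas its partner chain SLC3A2 rose (2.16).

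The element shared by targets of ATF4 and CHOP, spelled TGATGNAA, was found in the promoters of 6 of 26 members of the stress list (23.1%), against 3.89% of all genes. They were ASNS, ATF3, CEBPG, CHAC1, FGF21 and JDP2. Of these, ATF3 (log2 fold change 4.61) and FGF21 (1.54) rose, JDP2 fell (-1.02) and the other 3 stayed under 2-fold. JDP2 lay close to the 2-fold limit and did not pass the threshold after GC correction. Part of the promoters of both risers is shown, 5′ to 3′ on the strand of the gene, with the match in capitals at position -191 (ATF3) and, reading TTGCATCA from the reverse strand, -54 (FGF21) from the start. The windows are chr1:212565157-212565306 on the plus strand for ATF3 and chr19:48755404-48755523 on the plus strand for FGF21.
ATF3: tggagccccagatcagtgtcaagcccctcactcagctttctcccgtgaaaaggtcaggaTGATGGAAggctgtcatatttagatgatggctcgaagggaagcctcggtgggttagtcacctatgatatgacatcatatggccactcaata
FGF21: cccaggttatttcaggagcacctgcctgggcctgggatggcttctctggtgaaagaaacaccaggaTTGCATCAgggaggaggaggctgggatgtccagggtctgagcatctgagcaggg
FGF21, a secreted stress hormone, was low throughout, at 1.37 and 2.53 CPM and 5.61 and 5.70 CPM. The match is a description of the letters and shows no binding. Of the 7 rising members of the list with a promoter, 2 held the element, as did 1 of the 3 falling members, beside 6 of 26 in the whole list.

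Of 21 protein-folding genes of the endoplasmic reticulum, 5 rose and 0 fell (median 0.73), against 11.7% of all genes that rose. HSPA5, the main chaperone BiP, rose from 1040.2 and 961 CPM to 6708 and 7217 CPM (log2 fold change 2.80, SE 0.12, edgeR adjusted p 1.18e-09). The co-chaperone DNAJB9 rose from 49.4 and 44.9 CPM to 244 and 267 CPM (log2 fold change 2.44, SE 0.11, edgeR adjusted p 1.96e-09), with exons that overlap PNPLA8 and THAP5. Others changed less: the chaperone HSP90B1 had a log2 fold change of 0.86 and calreticulin, CALR, -0.43. Of 20 aminoacyl-tRNA synthetases, 3 rose and 0 fell, led by SARS1 (1.37) and AARS1 (1.30). Of 14 heat shock chaperones, 1 rose and 1 fell, under the shares of all genes. These were DNAJB1 (log2 fold change 1.16, 0.98 without combination replicate 2) and HSPE1 (-1.37), whose exons overlap TECR and HSPD1.

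Antioxidant genes driven by the factor NRF2 rose in 11 of 20 members and fell in 1, with a median of 1.12. SRXN1, which repairs oxidised peroxiredoxins, rose from 4.11 and 7.32 CPM to 33.0 and 42.5 CPM (log2 fold change 2.73, SE 0.26, edgeR adjusted p 7.66e-07), and OSGIN1, an oxidative stress gene, from 5.38 and 5.43 CPM to 34.9 and 34.8 CPM (log2 fold change 2.69, SE 0.19, edgeR adjusted p 6.67e-08). Thioredoxin reductase TXNRD1 (log2 fold change 1.76) and the ferritin chains FTH1 (1.92) and FTL (1.58) rose too. NQO1, a classic target, did not pass the test, at 414 and 283 CPM and 423 and 452 CPM. PRDX1, the peroxiredoxin that SRXN1 repairs, fell from 533 and 403 CPM to 218 and 215 CPM (log2 fold change -1.11, SE 0.13, edgeR adjusted p 5.64e-06), a change under 2-fold without TCE-5002 replicate 1 (-0.88).

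TXNIP binds thioredoxin and curbs glucose uptake, and with its arrestin relatives ARRDC3 and ARRDC4 it is a target of the glucose-sensing factor MondoA. TXNIP (chromosome 1, 145992435 to 145996600) rose from 4.26 and 4.27 CPM to 99.01 and 94.7 CPM (log2 fold change 4.50, SE 0.14, edgeR adjusted p 3.8e-11). ARRDC3 rose from 16.4 and 18.2 CPM to 78.0 and 67.7 CPM (log2 fold change 2.08, SE 0.15, edgeR adjusted p 5.42e-08) and ARRDC4 from 5.93 and 3.85 CPM to 19.4 and 19.03 CPM (log2 fold change 1.97, SE 0.19, edgeR adjusted p 1.03e-06). ARRDC1 (log2 fold change -0.54) and ARRDC2 (-0.03), which belong to the same family, did not, so 3 of the 8 genes of this list rose. The carbohydrate response element, a pair of spaced E-box-like sites, was found in the promoter of TXNIP alone among the 8 genes, against 0.0586% of all genes. This motif was chosen after the data had been seen. The part of the TXNIP promoter that holds it is shown with the match in capitals, beginning at position -88, on chr1:145996601-145996729 of the minus strand.
TXNIP: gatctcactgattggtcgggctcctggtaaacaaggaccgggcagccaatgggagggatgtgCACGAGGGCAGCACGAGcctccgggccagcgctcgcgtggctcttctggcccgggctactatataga

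Genes of glucose use fell in part. Of 26 glycolysis and hypoxia genes, 13 fell and 1 rose, with a median of -0.98. That median lies close to the 2-fold limit, and 10 fell by DESeq2 and 9 after GC correction. LDHA, which turns pyruvate into lactate, fell from 821 and 813 CPM to 187 and 204 CPM (log2 fold change -2.06, SE 0.12, edgeR adjusted p 1.38e-08), and the aldolase ALDOC from 130.3 and 161 CPM to 38.2 and 40.6 CPM (log2 fold change -1.89, SE 0.13, edgeR adjusted p 4.61e-08). Pyruvate kinase PKM (log2 fold change -1.65) and phosphoglycerate kinase PGK1 (-1.60) were other members that fell. The glucose transporter SLC2A1 (log2 fold change -0.02) and the hexokinase HK1 (0.06) had overlapping libraries. The riser was VEGFA, the blood vessel growth factor, from 319 and 411 CPM to 882 and 1053 CPM (log2 fold change 1.41, SE 0.14, edgeR adjusted p 1.46e-06).

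Nuclear genes of the respiratory chain fell in 12 of 41 members and rose in 1, with a median of -0.88. Of the 13 protein genes of the mitochondrial genome, 0 passed the threshold by edgeR or by DESeq2. At an edgeR adjusted p under 0.05 were 5 of them, 4 higher and 1 lower, all with changes under 2-fold. NDUFB3 and NDUFA2, subunits of complex I, had the largest falls (log2 fold change -1.50 and -1.47), but both overlap other genes, HYCC2 for the former and IK and TMCO6 for the latter. ATP5F1A, the alpha subunit of ATP synthase, fell from 1001 and 849 CPM to 408 and 407 CPM (log2 fold change -1.18, SE 0.11, edgeR adjusted p 9.52e-07). The riser was NDUFV2, from 7.30 and 6.32 CPM to 17.0 and 18.6 CPM (log2 fold change 1.38, SE 0.17, edgeR adjusted p 7.66e-06). Cytosolic ribosomal protein genes moved little, with 2 of 73 lower and 0 higher. RPS29 and RPL23A have many near-identical copies, so their values are uncertain.

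Of 25 cholesterol synthesis genes, 3 rose and 2 fell, shares near or under the 11.7% and 14.3% of all genes, with 5 higher without TCE-5002 replicate 1. HSD17B7, a reductase of the pathway, rose from 25.4 and 22.6 CPM to 73.7 and 66.3 CPM (log2 fold change 1.55, SE 0.13, edgeR adjusted p 2.8e-07). TM7SF2, a sterol reductase whose exons overlap VPS51, fell from 117 and 164 CPM to 54.3 and 56.3 CPM (log2 fold change -1.35, SE 0.15, edgeR adjusted p 2.87e-06) and was under 2-fold after GC correction (-0.96). Of 15 fatty acid genes, 5 fell and 1 rose (median -0.58). The elongase ELOVL5 fell from 1089.8 and 867 CPM to 387 and 369.6 CPM (log2 fold change -1.37, SE 0.12, edgeR adjusted p 5.17e-07). The desaturases FADS2 (-1.49) and FADS1 (1.06) moved in opposite directions, although exons of the pair overlap each other.

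Actin-linked genes included strong risers, with 8 of 19 higher and 2 lower (median 0.81), beside 11.7% and 14.3% of all genes. FLNA, a filamin that crosslinks actin, rose from 119 and 173 CPM to 1643 and 1853 CPM (log2 fold change 3.58, SE 0.17, edgeR adjusted p 1.96e-09). MYL9, a myosin light chain, was nearly silent at 0.101 and 0.263 CPM and reached 8.796 and 8.04 CPM (log2 fold change 5.49, SE 0.48, edgeR adjusted p 4.13e-07). SRF, the factor that drives many actin genes, had a log2 fold change of 1.49. TAGLN2, a transgelin of the same list, fell from 144 and 153 CPM to 31.8 and 31.8 CPM (log2 fold change -2.22, SE 0.11, edgeR adjusted p 3.71e-09). ACTB, the cytoplasmic actin, was at 1415 and 1637 CPM and 2612 and 2837 CPM (log2 fold change 0.84), under the 2-fold limit.

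TGF-beta and BMP targets changed in both directions, with 7 of 15 higher and 4 lower, beside 11.7% and 14.3% of all genes. The risers included ID1, ID2, ID3 and ID4, with log2 fold changes from 2.70 to 5.06, and CCN1, a matrix protein (3.57). PMEPA1, which dampens SMAD signalling and is also androgen-driven, fell from 239 and 271 CPM to 60.9 and 57.3 CPM (log2 fold change -2.11, SE 0.12, edgeR adjusted p 8.16e-09), and the pseudoreceptor BAMBI from 16.7 and 17.8 CPM to 5.39 and 5.34 CPM (log2 fold change -1.69, SE 0.17, edgeR adjusted p 1.2e-06). SMAD7 (log2 fold change 0.37) did not pass the test.

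Of 21 outputs of MAPK signalling and immediate early genes, 9 fell and 4 rose (median -0.65), beside 14.3% of all genes that fell and 11.7% that rose. The oncogenic factor MYC fell from 179 and 183 CPM to 44.3 and 42.6 CPM (log2 fold change -2.06, SE 0.11, edgeR adjusted p 7.26e-09), and the phosphatase DUSP4 from 23.1 and 17.8 CPM to 6.32 and 4.62 CPM (log2 fold change -1.90, SE 0.19, edgeR adjusted p 1.36e-06). DUSP5, another phosphatase of the pathway, rose from 2.38 and 1.95 CPM to 18.4 and 19.8 CPM (log2 fold change 3.13, SE 0.20, edgeR adjusted p 2.54e-08), and the ETS factor ETV5 had a log2 fold change of 1.81. The immediate early factor JUN stayed under 2-fold (-0.78).

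Identity genes outside the androgen program were mixed. Of 15 epithelial genes, 3 rose and 3 fell, beside 11.7% of all genes that rose and 14.3% that fell. ELF3, an epithelial ETS factor, rose from 31.2 and 36.5 CPM to 106 and 128 CPM (log2 fold change 1.79, SE 0.14, edgeR adjusted p 1.37e-07) and the epithelial repressor OVOL1 had a log2 fold change of 1.74, while keratin KRT19 (-2.10) and the claudin CLDN3 (-2.02) fell. Of 17 mesenchymal genes only 7 passed the filter on low counts. FN1, fibronectin, fell from 22.7 and 20.5 CPM to 9.24 and 8.76 CPM (log2 fold change -1.26, SE 0.15, edgeR adjusted p 5.61e-06), and ZEB1, a repressor of epithelial genes, rose from 0.254 and 0.369 CPM to 4.89 and 6.003 CPM (log2 fold change 4.10, SE 0.46, edgeR adjusted p 3.78e-06). Of 26 neuronal and neuroendocrine genes 13 passed the filter, of which 3 fell and 0 rose. Among them was the secreted precursor VGF, from 11.5 and 18.4 CPM to 3.46 and 4.80 CPM (log2 fold change -1.85, SE 0.24, edgeR adjusted p 1.66e-05).

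Of 23 interferon-stimulated genes, 3 rose and 6 fell, with a median of -0.06, beside 11.7% of all genes that rose and 14.3% that fell. The rising share was near that of all genes. IRF1, an activator of the response, rose from 4.31 and 4.69 CPM to 23.0 and 22.8 CPM (log2 fold change 2.35, SE 0.17, edgeR adjusted p 6.06e-08), and RIGI, a sensor of viral RNA, had a log2 fold change of 1.14, or 0.89 without TCE-5002 replicate 2. IFI6 fell from 9.54 and 11.9 CPM to 2.53 and 2.46 CPM (log2 fold change -2.10, SE 0.20, edgeR adjusted p 1.07e-06), as did USP18 (-1.22), a brake on interferon signalling. In antigen presentation 1 of 15 genes rose, the class I activator NLRC5 (1.83), and 1 fell, the peptide transporter subunit TAP2 (-1.68). Of 20 NF-kB and secreted inflammatory genes 8 passed the filter and 2 rose, LIF (3.67), a cytokine, and RELB (1.10, or 0.85 without TCE-5002 replicate 1), an NF-kB subunit.

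TIPARP, a target of the aryl hydrocarbon receptor, rose from 15.2 and 9.43 CPM to 39.5 and 39.8 CPM (log2 fold change 1.69, SE 0.18, edgeR adjusted p 2.59e-06), with 4 of 9 genes of that pathway higher and 1 lower. Of 25 lysosome and autophagy genes, 5 rose and 0 fell. SQSTM1, the autophagy receptor p62 and also an NRF2 target, rose from 325 and 410.0 CPM to 1304 and 1399 CPM (log2 fold change 1.88, SE 0.13, edgeR adjusted p 4.59e-08), and MAP1LC3B, which coats autophagosomes, from 114 and 95.2 CPM to 292 and 300.5 CPM. Their exons overlap MGAT4B and FBXO31. Of 32 splicing factors 3 rose and 1 fell, a smaller share than the 11.7% and 14.3% of all genes. Those that rose included the kinase CLK1 (1.64) and ESRP1 (1.10), a regulator of epithelial splicing that was just under 2-fold without TCE-5002 replicate 2. HNRNPA1 was the member that fell (-1.06, or -0.88 without TCE-5002 replicate 1). Among 15 replication-dependent histone genes, whose transcripts mostly lack a poly(A) tail and are poorly captured here, H2BC4 rose (1.25).

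**Figure D3:**
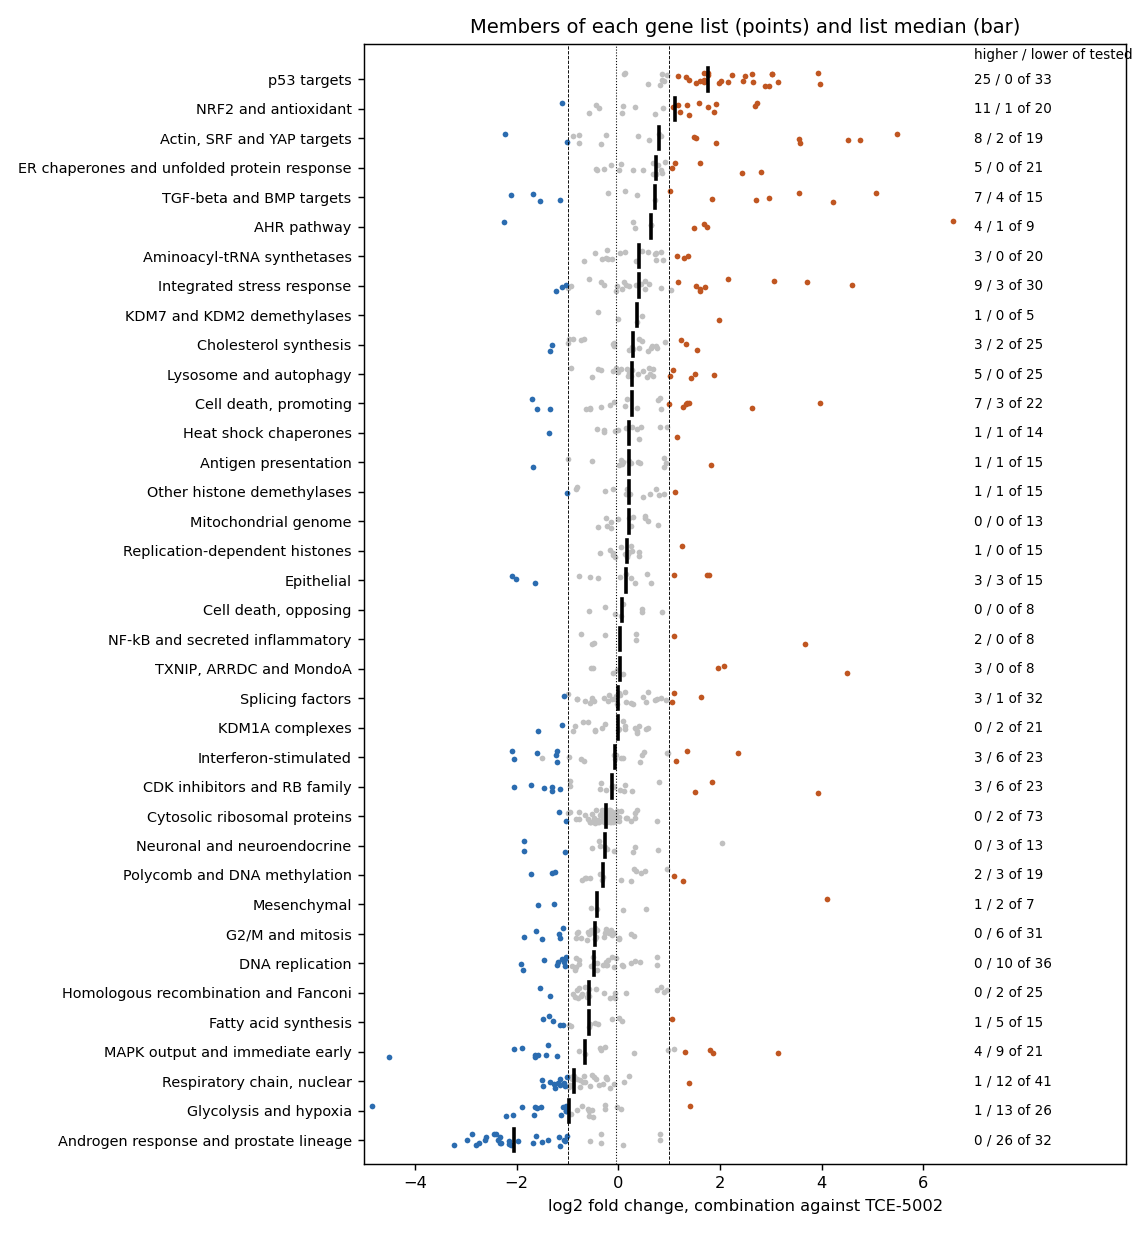
Log2 fold changes (combination against TCE-5002, horizontal axis) of the members of each gene list (rows), each point a gene, with the list median marked and genes past the threshold coloured. The prostate lineage list (median -2.05) and the p53 targets (1.76) lie farthest from the median of all genes (-0.04).

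Long non-coding RNAs rose in a larger share than protein-coding genes. Of 2768 long non-coding RNAs tested, 514 rose (18.6%) and 353 fell (12.8%), while of 13270 protein-coding genes 1203 rose (9.07%) and 2013 fell (15.2%). DIO3OS, transcribed opposite DIO3, rose from 1.32 and 2.58 CPM to 25.3 and 30.7 CPM (log2 fold change 3.84, SE 0.36, edgeR adjusted p 6.96e-07). PVT1, which lies beside MYC, rose from 18.7 and 20.3 CPM to 153 and 164 CPM (log2 fold change 3.02, SE 0.12, edgeR adjusted p 5.46e-10) while MYC fell. ERVE-1, an endogenous retroviral locus, rose from 1.98 and 2.58 CPM to 19.5 and 18.97 CPM (log2 fold change 3.08, SE 0.21, edgeR adjusted p 4.14e-08). NAPA-AS1 (3.83) overlaps exons of NAPA, and without strand in the counting the reads of such a pair cannot be told apart. Those that fell most were UICLM (log2 fold change -2.84, with exons that overlap CROCC2), LINC02197 (-2.53), COLCA1 (-2.44) and LINC02593 (-2.40). Across chromosomes the share of tested genes past the threshold ran from 22.8% to 30.9%.

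The effect of namoline was then compared between cells with and without TCE-5002. Namoline alone changed 2134 of the 17702 genes (12.1%) against R1881, with 916 higher (5.17%) and 1218 lower (6.88%). The contrast shares no library with the combination against TCE-5002, and the log2 fold changes of the 2 contrasts had a Pearson r of -0.23 and a Spearman rho of -0.27 across the 17702 genes, as a description, since genes share their libraries. Of the 2077 genes that rose when namoline was added to TCE-5002, 73 (3.51%) also rose with namoline alone and 351 (16.9%) fell. Of the 2537 that fell, 131 (5.16%) also fell and 367 (14.5%) rose. Seen from the other side, 204 of the 2134 genes changed by namoline alone (9.56%) were called in the same direction and 718 (33.6%) in the opposite one. The difference between both effects, tested as an interaction in the fit of the 8 libraries, passed the same threshold in 6244 genes (35.3%), with 2959 positive (16.7%) and 3285 negative (18.6%). The interaction contains the libraries of the combination and of TCE-5002, so it is not independent of the comparison described so far.

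**Figure D4:**
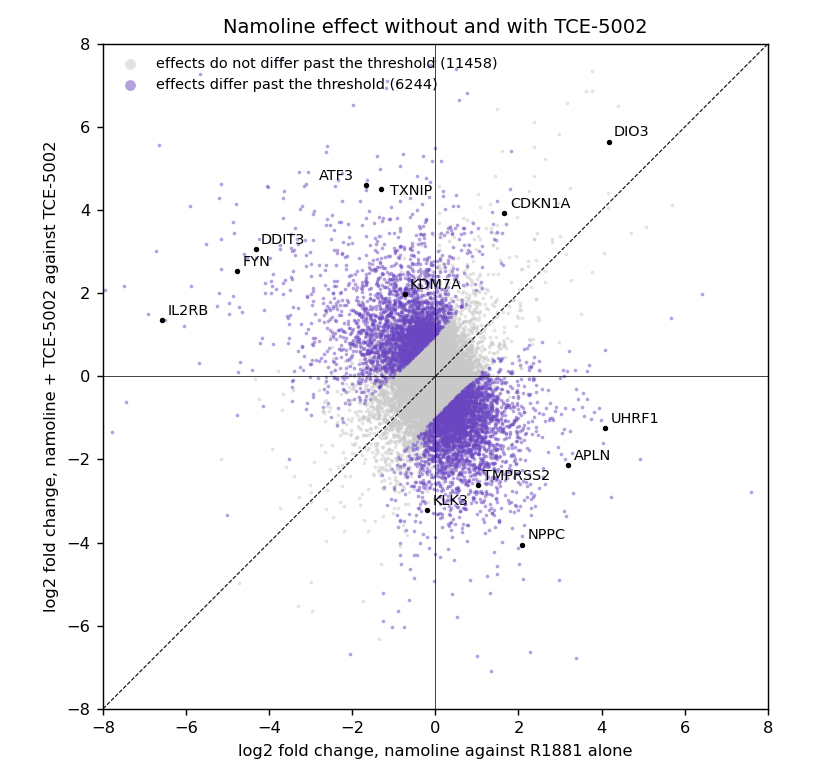
Log2 fold change of namoline on top of TCE-5002 (vertical axis) against that of namoline on R1881 alone (horizontal axis), each point a gene tested, with genes named in the text marked. Pearson r across the 17702 genes was -0.23.

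Most stress response and DNA replication genes differed between both settings. With namoline alone, 24 of 30 stress response genes fell and 0 rose (median -1.79), and the interaction was positive for 24 and negative for 0. DDIT3 was at 381 and 355 CPM with R1881, 19.97 and 16.7 CPM with namoline, 92.4 and 95.3 CPM with TCE-5002 and 777 and 793 CPM with both (interaction log2 7.39, SE 0.18, edgeR adjusted p 2.68e-12). Namoline thus lowered it without TCE-5002 and raised it with TCE-5002. FYN, a SRC family kinase, was at 20.9 and 20.7 CPM with R1881, 1.04 and 0.464 CPM with namoline, 3.30 and 3.42 CPM with TCE-5002 and 17.8 and 21.1 CPM with both (interaction log2 7.30, SE 0.33, edgeR adjusted p 1.62e-09). IL2RB, an interleukin receptor chain, had the largest positive interaction among the genes named (7.93, SE 0.58, edgeR adjusted p 5.64e-08), but it rests on low levels with TCE-5002, 0.913 and 1.58 CPM, and uneven ones with the combination, 1.87 and 4.56 CPM, against 27.1 and 29.6 CPM with R1881 and 0.289 and 0.290 CPM with namoline. The rise of IL2RB over TCE-5002 did not pass the test without combination replicate 2 (log2 fold change 0.59, edgeR adjusted p 0.209).

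DNA replication genes went the other way, with 31 of 36 higher with namoline alone (median 1.79) and an interaction that was negative for 30 and positive for 1. UHRF1 was at 1.62 and 1.58 CPM with R1881, 23.6 and 31.4 CPM with namoline, 8.93 and 11.4 CPM with TCE-5002 and 4.40 and 4.202 CPM with both (interaction log2 -5.33, SE 0.31, edgeR adjusted p 7.71e-09). NPPC and APLN, which encode a natriuretic and a vasoactive peptide, had strongly negative interactions. NPPC was at 3.83 and 4.56 CPM with R1881 and 16.7 and 18.6 CPM with namoline (interaction log2 -6.13, SE 0.26, edgeR adjusted p 1e-09). APLN was at 4.85 and 5.39 CPM with R1881, 39.1 and 54.4 CPM with namoline, 18.2 and 23.7 CPM with TCE-5002 and 4.56 and 4.98 CPM with both (interaction log2 -5.33, SE 0.28, edgeR adjusted p 3.72e-09).

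For the prostate lineage list, namoline alone raised 5 of 32 genes and lowered 1, with a median of 0.49, and the interaction was negative for 28 and positive for 0. KLK3 was at 203 and 222 CPM with R1881 and 163 and 209.7 CPM with namoline (interaction log2 -3.03, SE 0.21, edgeR adjusted p 4.68e-08). TMPRSS2 was at 371 and 391 CPM with R1881 and 727 and 825 CPM with namoline (interaction log2 -3.65, SE 0.17, edgeR adjusted p 2.27e-09). The fall of these genes with namoline was thus measured on the TCE-5002 background, and the difference between both settings passed the test. For p53 targets, namoline alone raised 7 of 33 and lowered 2, and the interaction was positive for 24 and negative for 0. CDKN1A was at 57.3 and 72.5 CPM with R1881 and 234 and 176 CPM with namoline, so it was raised by namoline in both settings (log2 fold change 1.66 and 3.93), and more on top of TCE-5002 (interaction log2 2.26, SE 0.21, edgeR adjusted p 5.79e-07). TXNIP was at 767 and 714 CPM with R1881 and 319.9 and 278 CPM with namoline (interaction log2 5.81, SE 0.18, edgeR adjusted p 3.94e-11), so namoline lowered it without TCE-5002 (log2 fold change -1.31) and raised it with TCE-5002. Of 41 respiratory chain genes, 1 had a positive and 23 a negative interaction, and of 73 ribosomal protein genes 0 and 6, so that most of the latter did not pass the test.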

How the data were processed

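Polyadenylated RNA of C4-2 cells was captured and sequenced in paired ends by the authors, who filtered reads by base quality, trimmed them with Trim Galore and cutadapt and aligned them to GRCh38 with STAR (per the labels and the study's methods). The deposited files hold, per the file headers, whole fragment counts per gene from featureCounts 1.5.0-p1 with Ensembl release 83, not normalised and counted without strand, so overlapping genes and near-identical copies are uncertain. Groups were taken from the library titles, since a treatment field of the labels describes siRNA work. The study's methods call the 2 libraries of a group biological replicates, and p-values measure the spread between these libraries.

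All 8 C4-2 libraries were fitted together. The 4 LNCaP libraries were not used. Genes were kept with filterByExpr, scaled by TMM and tested with the quasi-likelihood F test of edgeR 4.0.16 (R 4.3.3, limma 3.58.1), adjusted by Benjamini-Hochberg over all 17702 genes. Past the threshold means an adjusted p under 0.05 with a change of at least 1, up or down, on the log2 scale, and "rose" and "fell" are used only for such genes. Each SE was obtained by dividing the size of the log2 fold change by the root of its F value. CPM were computed here from the counts with the TMM factors. The interaction is the combination minus TCE-5002 minus namoline plus R1881. In simulated counts, 200 genes held a log2 change of 2. Of these, 98% were recovered for the combination against TCE-5002 (17298 genes, 2 false calls). It was 97% for namoline against R1881 (17338 genes, 5 false calls) and 89.5% for the interaction (17100 genes, 7 false calls). The simulation held no batch, no GC trend between replicates and fewer changed genes than were called in the data. Its false calls therefore do not measure those in the data.

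The comparison, gene lists and motifs were chosen with earlier results of these data known. Genes named were 16 fixed genes, the 10 largest protein-coding changes and the 4 largest long non-coding changes each way with 10 CPM or more where they were higher and no overlap of the libraries, up to 2 rising and 2 falling members per list at 10 CPM, and the 3 largest interactions each way. A few genes that this rule selects are not reported here. Any other gene named was picked with its values in view. Coordinates of genes come from the deposited files (GRCh38, 1-based). Promoters are from RefSeq (GRCh38.p14). Alternatives were RLE scaling, no filter, DESeq2 1.42.0, a likelihood ratio test, GC correction, a block for the replicate number, smaller sets of libraries and leaving out each library.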

Additional observations from a re-analysis of the deposited data

Results flagged for a closer look

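The effect of namoline differed between cells with and without TCE-5002 by the edgeR interaction term in 6244 of 17702 genes. Among the demethylases, the interaction on the log2 scale was -1.15 for KDM1A, at 74.1 and 72.4 CPM with R1881 and 113 and 124 CPM with namoline, and 2.71 for KDM7A, at 99.9 and 95.0 CPM with R1881 and 62.2 and 54.5 CPM with namoline. Among prostate lineage genes it was -2.96 for KLK2, -3.03 for KLK3, -3.65 for TMPRSS2, -1.65 for FKBP5, -2.40 for FOXA1 and -3.32 for HOXB13. Among the other genes fixed by name it was 2.26 for CDKN1A, 5.81 for TXNIP and -5.33 for UHRF1. The largest positive interactions among protein-coding genes past the threshold over TCE-5002, with at least 10 CPM in the highest group, were those of IL2RB (7.93), DDIT3 (7.39) and FYN (7.30), and the largest negative ones those of NPPC (-6.13), UHRF1 (-5.33) and APLN (-5.33). The groups of 2 libraries were too small for a test of outlying samples.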

How the results depend on the processing

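The number of genes past the threshold for the combination against TCE-5002 (4614) was 4629 with RLE scaling, 5082 of 38272 genes without a filter, 4861 by the likelihood ratio test, 4092 by DESeq2, 4406 on the 4 libraries alone and 4490 on 6 libraries without R1881. Without the limit on fold it was 9749. It ran from 4050 to 4901 when 1 library was left out, where the lone library of a group is assumed to vary like the others. After GC correction it was 4599, with 2317 higher and 2282 lower, and 4167 genes were shared with the uncorrected calls. DESeq2 shared 4004 genes with the main fit. The genes called without 1 library were in part others than those of the main fit. The count of interactions ran from 5713 to 6592 and that of namoline against R1881 from 1486 to 1970 when 1 library was left out.

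Deviations of same-numbered libraries correlated at 0.14 to 0.49 in 5 of 6 pairs of groups and at -0.03 between namoline and the combination. Since 1 pair of groups showed no positive correlation and the labels tie the numbers to no shared culture or day, the samples were not treated as paired, although the libraries of the other pairs deviated together. With the replicate number as a block, 4626 genes passed the threshold, with GC correction and the block together 4573, and the interaction count was 6285. The fits on 4 and on 6 libraries give no interaction.

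Of 1547 values of 119 named genes under these alternatives, 1527 kept their side of the threshold and 20 no longer passed. Of the values of genes past the threshold in the main fit, 0 changed direction. For the other genes the direction was not followed, and genes named outside the rule were not among the 119. The genes that no longer passed were FKBP5, SLC7A5, DNAJB1, PRDX1, TM7SF2, RIGI, RELB, RPS29, RPL23A, ESRP1, HNRNPA1 and IL2RB. Of 481 values of 37 list medians under the alternatives, 65 moved by more than the spread between replicates. Of the medians, 5 changed sign under some alternative, with a main median of at most 0.26 in size: the KDM1A complexes, splicing factors, TXNIP and ARRDC genes, neuronal genes and NF-kB genes. The cause was not tested.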

Other observations

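Gene families outside the lists above were chosen after their values were seen and are given as a description, beside 11.7% of all genes that rose and 14.3% that fell. Of 16 genes of the circadian clock tested, 8 rose and 1 fell when namoline was added to TCE-5002, with a median log2 fold change of 0.97. CIART, a repressor of the clock, was at 10.2 and 9.54 CPM with TCE-5002 and 81.0 and 92.3 CPM with the combination (log2 fold change 3.13). The repressor PER1 was at 28.6 and 36.5 CPM and 218 and 254 CPM (2.86). The nuclear receptor NR1D1, whose exons overlap THRA, was at 7.56 and 7.85 CPM and 36.6 and 45.5 CPM (2.41). HLF, a factor under clock control, fell (-1.56). Of 3 metallothioneins tested, which bind zinc and copper, 2 rose and 0 fell. MT2A was at 16.5 and 30.6 CPM and 122 and 148 CPM (2.52), with the TCE-5002 libraries uneven, and MT1X had 2.34. MT1F had -0.09, with overlapping libraries. The family has near-identical copies, so its values are uncertain.

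Alpha and beta tubulin genes fell in 9 of 15 tested and rose in 0 (median -1.19, with near-identical copies uncertain), and their median with namoline alone was 1.39. Of 23 HOX genes, 9 fell and 3 rose, with a negative median.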
